A study of Mus musculus with 36 samples.

Results

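The comparison described here is the sustained response of *Ift88*-depleted cells to interleukin-1β (IL-1β), the change in gene expression from medium only (0 h) to 24 h of the cytokine. It rests on 6 of the 36 RNA-seq libraries of the series, which are the 3 IFT88siRNA libraries at 24 h and the 3 IFT88siRNA libraries at 0 h, chosen by their labels. All of them came from 1 mouse line of fibroblast-like chondrocytes, labelled WT, which per the methods is conditionally immortalised with interferon-γ and released from it before use. They were transfected with a pool of siRNA against *Ift88* at 50 nM by the sample labels and grown to confluence before the time course, while the study's methods give a lower siRNA concentration. IL-1β was given at 10 ng/ml. No library came from cells kept in medium only for 24 h, so IL-1β and time in culture cannot be told apart. The response here means the change from 0 h to 24 h, whatever its source. Cells with a non-targeting siRNA pool (NT), treated in the same way at 0 h and 24 h with 3 libraries each, served as the comparison for the response, and the IFT88siRNA libraries at 1, 2, 4 and 8 h gave its time course. The line is a single line in culture, so that it stands for neither a tissue nor an animal, and the labels do not say whether replicates were separate cultures. The p-values then measure only the spread between these libraries, which may be technical.

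IL-1β binds the receptor IL1R1, which recruits the accessory protein IL1RAP and the adaptor MyD88 and signals through IRAK kinases and TRAF6 to the IκB kinases and the MAP kinases. NFκB released from its inhibitors then induces chemokines, cytokines and its own inhibitors, and in chondrocytes IL-1β is known for driving nitric oxide and prostaglandin E2 production, matrix protease expression and loss of cartilage matrix. IFT88 is a core subunit of the intraflagellar transport complex B (IFT-B), which carries cargo into the primary cilium.

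The depth, replicates and identity of the libraries were checked before the comparison. Counts on genes summed to between 25864798 and 26699475 in the 3 libraries at 0 h and between 23280819 and 38304127 in those at 24 h, and intervals on counts given here cover counting error only. Replicates differed by more than counting error, with a chi-square per degree of freedom of 1.71 to 6.61 between pairs of one group, and replicate 2 at 0 h and replicate 3 at 24 h were the least like the others of their group. *Ift88* was at 2.59, 2.89 and 2.82 CPM (counts scaled to library size) at 0 h and 1.98, 2.26 and 2.36 CPM at 24 h, while NT cells had means of 9.06 ± 0.362 CPM before and 6.11 ± 0.2201 CPM after IL-1β (SD, n = 3). Its transcript was therefore measured below every NT library in each library of the comparison, and its change over the 24 h was not called (log2 fold change −0.31, edgeR adjusted p = 0.0817).

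Markers of the labelled chondrocyte type were in part near the limit of detection. Of 10 chondrocyte markers 6 had enough counts to be tested, and aggrecan (*Acan*) had 1 to 5 counts in any of the 6 libraries, *Col9a1* 0 or 1. The 10 fibroblast markers were all expressed highly enough to be tested. Of 12 macrophage and leukocyte markers 2 were tested, *Tyrobp* and *Cd3e* were at 0 counts in all 6 libraries and *Ptprc* had 0 to 3 counts, and the summed level of the list was 7.43 to 8.23 CPM at 0 h and 5.23 to 5.85 CPM at 24 h. Of 7 endothelial markers 3 were tested, with a sum of 1.91 to 3.11 CPM at 0 h and 1.39 to 1.91 CPM at 24 h, and of 7 epithelial markers 3 were tested, with a sum of 4.01 to 4.94 CPM at 0 h and 1.26 to 1.62 CPM at 24 h. The 3 tested epithelial markers, *Cdh1*, *Krt5* and *Krt19*, all fell, by 1.92, 1.32 and 1.399 on the log2 scale. The call of *Krt5* was lost without replicate 3 at 24 h (−1.01) and the gene was not tested without replicate 1 at 0 h, and that of *Krt19* was lost without replicate 2 (−1.19) or 3 (−1.14) at 0 h or replicate 2 at 24 h (−1.02). In bulk RNA fewer cells of a type and less RNA per cell cannot be told apart, and the part of these low-level transcripts in the results was not tested.

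A large share of the transcriptome differed between 0 h and 24 h of IL-1β in *Ift88*-depleted cells. A gene was called when the Benjamini-Hochberg adjusted p-value of edgeR's quasi-likelihood test fell below 0.05 and the fold change exceeded 1.5. Of 15371 genes tested 1030 rose (6.7%) and 1227 fell (7.98%). Among larger changes rises outnumbered falls, with 202 genes up and 93 down over 4-fold. Genes that rose held 3.56% to 3.57% of all counts in the libraries at 0 h and 8.29% to 8.52% at 24 h, and genes that fell went from between 5.84% and 6% to between 3.11% and 3.24%. The median log2 change over all tested genes was 0.0041, and the quartiles were −0.197 and 0.186. Of 12870 tested protein-coding genes 830 rose and 1121 fell, whereas of 864 tested processed pseudogenes, whose reads may come from their parent genes, 55 rose and 9 fell. Leaving out the libraries least like their group gave 1027 rises and 1186 falls without replicate 2 at 0 h, and 1016 rises and 1197 falls without replicate 3 at 24 h.

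The 12 largest rises, taken among called genes with a mean of at least 50 counts and no overlap between the groups, were led by acute-phase proteins and neutrophil chemokines. Of these genes 9 had at most 6 reads in any library at 0 h. *Saa3*, a serum amyloid A protein of the acute-phase response, was at 0.0682, 0.0352 and 0.0706 CPM at 0 h and 624, 675 and 724 CPM at 24 h, with 5 reads in all at 0 h. The ratio of its summed counts was 11700 (95% interval 5000 to 35900, exact binomial, counting error only). For *Saa3* edgeR gave a log2 fold change of 13.42 (adjusted p = 1.73e-21). Standard errors given here are the log2 change or difference divided by the square root of edgeR's F statistic. They can be too small, even below counting error, for genes with few reads in a group. Such genes include *Lcn2*, *Cxcl5*, *Cxcl1* and *Tnfrsf9* at 0 h and *Krt15* at 24 h. *Lcn2*, the siderophore-binding lipocalin 2, was at 0.545, 0.352 and 0.424 CPM and then 971, 990.2 and 1068 CPM, a log2 fold change of 11.16 (standard error 0.0898, edgeR adjusted p = 4.79e-22). All 3 libraries at 24 h were far above those at 0 h for both genes, and the spread within each group was small beside the gap.

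The chemokine *Cxcl5*, a neutrophil attractant, was at 0.954, 0.246 and 0.424 CPM at 0 h and 682, 676 and 618 CPM at 24 h (log2 fold change 10.24, standard error 0.125, edgeR adjusted p = 7.09e-20). *Nos2*, the inducible nitric oxide synthase, was at 0.0341, 0.0704 and 0.0353 CPM and then at 57.4, 53.8 and 54.1 CPM, which is 1180 times its summed level of 4 reads at 0 h (95% interval 461 to 4330). *Cxcl1*, another ligand of the receptor CXCR2, rose from 1.26, 1.65 and 1.45 CPM to 490.2, 484 and 474 CPM (log2 fold change 8.39, standard error 0.0709). The other acute-phase genes among the 12 were *Hp*, which encodes haptoglobin, at 0.175 ± 0.0377 and 38.9 ± 2.98 CPM, and *Saa1* and *Saa2*, close paralogs between which reads can be misassigned (SD, n = 3). *Saa1* had no read at 0 h and 3.84, 3.697 and 3.98 CPM at 24 h, so that it was at least 110-fold higher against a floor of 3 counts over the group, and *Saa2* was 223-fold higher (95% interval 61.3 to 1840) on 2 reads at 0 h.

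The remaining 4 of the 12 genes had different roles. *Nts*, the precursor of neurotensin, rose from 0.0584 ± 0.0737 to 26.7 ± 1.74 CPM (SD, n = 3). *Vnn3*, a member of the vanin family of pantetheinases, rose from 0.0583 ± 0.0409 to 23.1 ± 0.709 CPM. *Serpina3i* belongs to a cluster of closely related serpins, so that its reads may be shared with its neighbours, and was at 9.27, 9.96 and 9.22 CPM at 24 h. *Acod1*, the enzyme that makes itaconate, had 3 reads at 0 h and stood at 7.998, 6.65 and 7.34 CPM at 24 h, 207-fold higher (95% interval 70.6 to 1010). None of these 4 genes had more than 5 reads over the 3 libraries at 0 h, and all 3 libraries at 24 h had at least 202 reads of each.

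**Figure D1:**
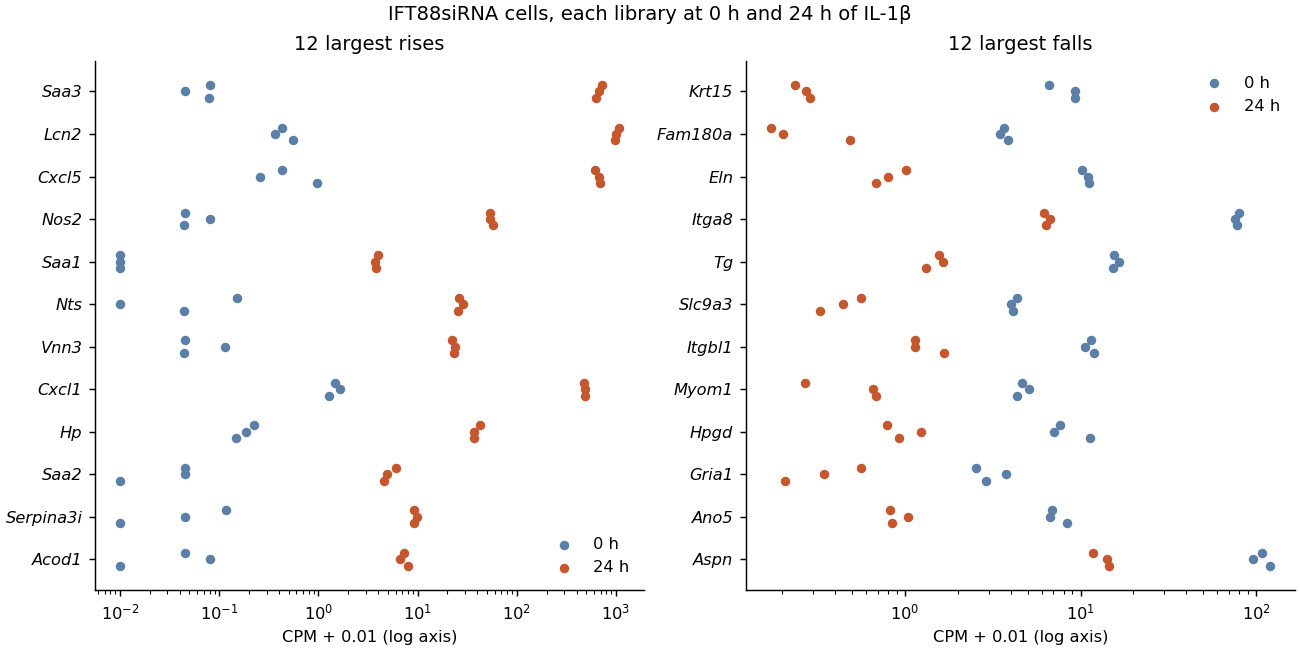
The level of each of the 12 largest rises (left) and 12 largest falls (right) in each IFT88siRNA library, as CPM plus 0.01 on a log axis, with points for the 3 libraries at 0 h (blue) and the 3 at 24 h (orange). The groups do not overlap for any of the 24 genes, as the rule that chose them required, and *Saa3*, *Lcn2*, *Cxcl5* and *Cxcl1* stood between 474 and 1068 CPM at 24 h.

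Promoter sequence was available for 9 of these 12 genes from RefSeq (GRCm38.p6, from 250 bases before to 50 bases after the start), and is shown for those that hold a κB motif, the DNA element bound by NFκB. The motif GGGANNNNCC was searched on both strands, so that its reverse complement GGNNNNTCCC was counted too. It was found in 4 of the 9 genes and in 22.9% of all 27025 genes with a promoter, where any promoter of a gene could hold it. Counted by promoter, 20.7% of all 32851 held the motif. Of tested genes with a promoter 30.6% had it, against 33.1% of genes that rose and 31.8% of genes that fell. The sequences are written 5′ to 3′ along the gene in lower case, and capitals mark the motif.
*Cxcl1* (chr5:90890995-90891294, plus strand): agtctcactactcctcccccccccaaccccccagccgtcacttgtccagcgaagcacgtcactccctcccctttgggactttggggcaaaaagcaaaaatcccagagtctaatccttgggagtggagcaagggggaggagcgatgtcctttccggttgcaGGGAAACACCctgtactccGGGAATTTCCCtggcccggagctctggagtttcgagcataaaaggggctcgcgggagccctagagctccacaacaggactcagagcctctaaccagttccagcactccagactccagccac
*Nts* (chr10:102490369-102490668, minus strand): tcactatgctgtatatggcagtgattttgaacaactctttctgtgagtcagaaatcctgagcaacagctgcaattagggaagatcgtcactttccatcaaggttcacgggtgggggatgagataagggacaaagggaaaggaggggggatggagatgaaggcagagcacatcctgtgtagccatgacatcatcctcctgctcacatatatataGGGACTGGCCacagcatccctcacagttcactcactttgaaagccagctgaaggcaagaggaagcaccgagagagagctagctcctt
*Serpina3i* (chr12:104262872-104263171, plus strand): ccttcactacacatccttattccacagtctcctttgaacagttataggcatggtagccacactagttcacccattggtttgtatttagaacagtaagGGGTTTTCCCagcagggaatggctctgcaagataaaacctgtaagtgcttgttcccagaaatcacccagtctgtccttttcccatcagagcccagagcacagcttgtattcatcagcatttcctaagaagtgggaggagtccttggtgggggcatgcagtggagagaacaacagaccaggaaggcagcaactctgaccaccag
*Acod1* (chr14:103046762-103047061, plus strand): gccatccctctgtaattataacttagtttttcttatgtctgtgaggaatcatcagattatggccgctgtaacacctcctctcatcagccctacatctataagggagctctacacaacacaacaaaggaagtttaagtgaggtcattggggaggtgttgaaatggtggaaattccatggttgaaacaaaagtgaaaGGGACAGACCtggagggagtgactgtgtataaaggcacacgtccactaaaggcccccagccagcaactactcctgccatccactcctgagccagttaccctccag
In *Cxcl1* a match began 90 bases before the start and overlapping matches on both strands began 71 and 70 bases before it. The matches in *Nts*, *Acod1* and *Serpina3i* began 37, 55 and 153 bases before the start. A match to these letters is a description of the sequence, and no binding was measured.

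Chemokines were raised as a group at 24 h. Of 19 tested chemokine genes 16 rose and none fell, with a median log2 change of 2.6 beside 0.0041 over all genes. The summed level of the list went from 495.9 to 505.9 CPM at 0 h to between 2669.99 and 2757.1 CPM at 24 h. *Ccl2*, the main attractant of monocytes, was at 5.32, 5.03 and 5.29 CPM and then 289, 287 and 298 CPM (log2 fold change 5.82, standard error 0.0557, edgeR adjusted p = 2.2e-21). Its neighbour *Ccl7*, also a monocyte attractant, rose from 2.33 ± 0.0498 to 151 ± 4.74 CPM (SD, n = 3), and *Ccl5*, which attracts T cells, from 36.1 ± 1.61 to 271 ± 27.4 CPM. The neutrophil chemokine *Cxcl3* rose by 5.715 on the log2 scale, from 5, 5 and 7 reads at 0 h to 279, 456 and 292 at 24 h. *Cxcl2*, another neutrophil chemokine, was low at 24 h, at 1.11, 1.37 and 1.46 CPM after no read at 0 h, at least 38.1-fold higher. *Ccl17*, *Ccl25* and the homeostatic chemokine *Cxcl12* were not called, and *Cxcl12* was at 30.3 ± 1.06 and 34.7 ± 1.13 CPM. The 5 other chemokines of the list had too few counts to be tested.

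Cytokines moved less uniformly. Of 16 tested genes 6 rose and 2 fell, with a median log2 change of 0.31. *Il6* was at 0.136, 0.0352 and 0.176 CPM at 0 h and 8.63, 9.48 and 9.25 CPM at 24 h, a ratio of 79.1 on 10 reads at 0 h (95% interval 42.8 to 166). *Csf3*, the granulocyte colony-stimulating factor, was at 0.0682, 0.141 and 0 and 3.48, 3.17 and 2.75 CPM, a ratio of 44.7 (95% interval 20.3 to 123). Both were low at 0 h in every library and the groups stood apart. *Lif*, a cytokine of the interleukin-6 family, rose from 23 ± 0.748 to 57.2 ± 0.494 CPM (log2 fold change 1.33, standard error 0.0496), and *Tnfsf15* and *Tnfsf13b*, ligands of the TNF family, rose by 2.07 and 2.05 on the log2 scale. *Il18* and *Ctf1*, which encodes cardiotrophin 1, fell by 0.61 and 0.65. Neither passed the fold-change threshold without replicate 1 at 24 h (−0.51 and −0.58), nor did *Il18* without replicate 3 at 0 h (−0.58) or *Ctf1* without replicate 2 at 0 h (−0.56). *Tnf* had 2, 1 and 2 reads at 0 h and 6, 11 and 3 at 24 h and was too low to be tested, and *Il1b* had at most 1 read in any of the 6 libraries. *Csf1*, the macrophage colony-stimulating factor, was at 627 ± 8.03 and 881 ± 8.34 CPM, a log2 change of 0.503 that stayed under the fold-change threshold.

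In the IL-1 receptor pathway itself, the genes that rose included negative regulators as well as the accessory protein. Of 16 tested genes 4 rose and none fell, with a median of 0.17. *Il1rl1*, the interleukin-33 receptor, rose from 20.7 ± 2.03 to 83.4 ± 5.81 CPM (SD, n = 3; log2 fold change 2.02, standard error 0.0661). *Irak3*, a kinase-dead IRAK that restrains the pathway, rose by 1.54 and *Il1rn*, the secreted IL-1 receptor antagonist, by 1.47 on the log2 scale. *Il1rap* was at 70.8, 63.6 and 70.5 CPM and then 118, 114 and 107 CPM (log2 fold change 0.74, standard error 0.0493, edgeR adjusted p = 9.79e-10). *Il1r1*, the signalling receptor, was at 32.2 ± 1.57 and 40.5 ± 0.699 CPM and did not reach the fold-change threshold.

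NFκB subunits, inhibitors and feedback genes included 13 rises and no fall among 23 tested, with a median of 0.91. The largest were *Bcl3*, a nuclear IκB protein that works with p50 and p52, from 1.84, 2.18 and 2.72 CPM to 40.3, 40.6 and 43.8 CPM (log2 fold change 4.22, standard error 0.0955), *Tnip3* and *Zc3h12a*. The latter encodes regnase-1, an RNase that degrades inflammatory mRNAs, and rose from 5.62 ± 0.619 to 80.2 ± 1.41 CPM (SD, n = 3). *Nfkbiz*, which encodes the atypical nuclear inhibitor IκBζ, rose from 30.9, 30.7 and 28.3 CPM to 261, 241 and 244 CPM, and *Nfkbia*, which encodes IκBα, from 44.4 ± 1.82 to 133 ± 3.82 CPM. The precursor subunit gene *Nfkb1* rose by 1.12 on the log2 scale, and *Relb* and *Nfkb2* by 1.51 and 0.91. *Rela*, the main activating subunit, was at 96.1 ± 2.22 and 120.2 ± 1.59 CPM and was not called, nor were the kinase genes *Chuk*, *Ikbkb* and *Ikbkg*.

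Acute-phase and complement genes had the largest list median, 2.91, and 19 of 22 tested members rose. *C3*, the central component of complement, was at 16.1, 11.96 and 14.1 CPM at 0 h and 1216, 1206 and 1193 CPM at 24 h (log2 fold change 6.43, standard error 0.0726, edgeR adjusted p = 2.27e-20). *Cfb*, the factor B of the alternative pathway, rose from 0.325 ± 0.0713 to 7.58 ± 0.835 CPM, and *C4b* from 14.8 ± 0.238 to 89.3 ± 2.77 CPM (SD, n = 3). Components upstream rose less, with log2 changes of 1.13 for *C1s1*, 1.23 for *C1ra* and 1.26 for *C1rb*, the last of these being near-identical copies. *Cp*, the copper carrier ceruloplasmin, rose by 3.001, *Lbp*, the lipopolysaccharide-binding protein, by 3.09, and the pentraxin *Ptx3* by 2.17, from 245 ± 12.9 to 1091 ± 76.8 CPM. Among regulators of complement, *Serping1*, the C1 inhibitor, rose by 1.44, and *Cd59a*, an inhibitor of the membrane attack complex, fell by 1.17.

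**Figure D2:**
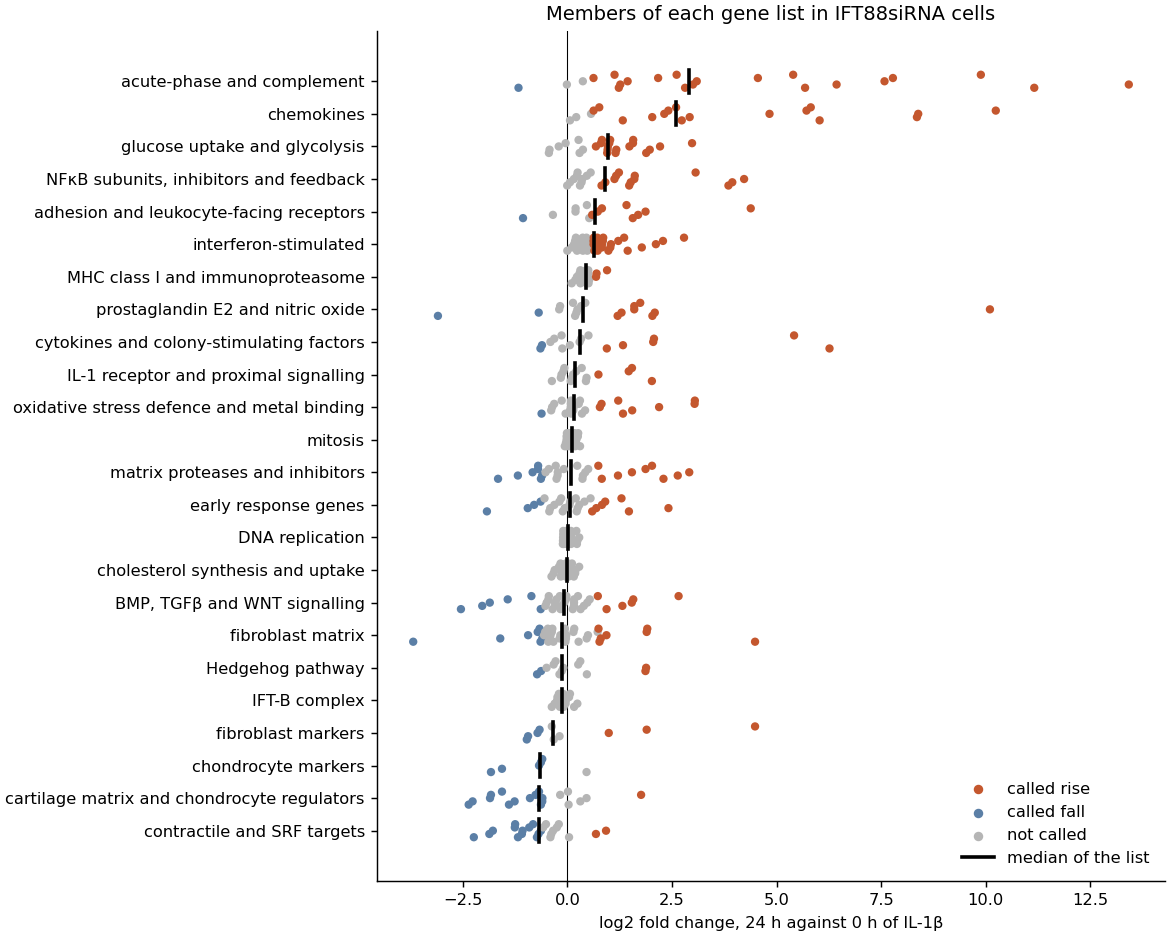
The log2 fold change from 0 h to 24 h in IFT88siRNA cells (x axis) of each tested member of 24 gene lists (rows), with called rises in orange, called falls in blue, other members in grey and the list's median as a black line. Medians ran from 2.91 for acute-phase and complement genes to −0.69 for contractile genes, and the cholesterol, mitosis, replication and IFT-B lists held no called member.

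Of 18 tested genes of prostaglandin E2 and nitric oxide metabolism 8 rose and 2 fell, with a median of 0.38. *Ptgs2*, the inducible cyclooxygenase, was at 36.7, 33.2 and 36.04 CPM at 0 h and 115, 102 and 102 CPM at 24 h (log2 fold change 1.597, standard error 0.0554, edgeR adjusted p = 1.19e-13). *Ptges*, the inducible prostaglandin E synthase, was at 2.795, 2.22 and 2.36 CPM and then 8.91, 7.78 and 7.92 CPM (log2 fold change 1.74, standard error 0.116). The groups did not overlap for either gene. *Slco2a1*, a prostaglandin transporter, rose by 1.598 on the log2 scale, and *Hpgd*, the enzyme that inactivates prostaglandins, was among the largest falls, from 11.3, 7.04 and 7.59 CPM to 0.911, 1.22 and 0.776 CPM. On the nitric oxide side, *Slc7a2*, a carrier of arginine, rose from 109 ± 5.06 to 459 ± 30.7 CPM (SD, n = 3), and *Gch1*, which makes the cofactor tetrahydrobiopterin, by 1.2. *Ptgs1*, the constitutive cyclooxygenase, was not called (log2 change −0.197). Neither was the phospholipase *Pla2g4a* (0.24).

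Matrix proteases changed in both directions. Of 28 tested proteases and inhibitors 9 rose and 7 fell, with a median of 0.074. *Mmp3*, a stromelysin, was at 0.307, 0.141 and 0.176 CPM at 0 h and 1.98, 1.42 and 1.46 CPM at 24 h (log2 fold change 2.91, standard error 0.304, edgeR adjusted p = 3.86e-07). *Mmp13*, the main collagenase of cartilage, was at 0.7499, 0.563 and 0.424 CPM and then 3.29, 2.304 and 3.11 CPM (log2 fold change 2.296, standard error 0.226, edgeR adjusted p = 1.84e-07). Both were low transcripts in these cells even after IL-1β, with at most 96 reads of *Mmp13* and 59 of *Mmp3* in a library. *Mmp19* rose from 5.31 ± 0.585 to 21.4 ± 1.71 CPM (SD, n = 3). The metalloprotease inhibitor *Timp1* rose by 1.87 on the log2 scale. Of the aggrecanase genes *Adamts4* rose by 0.74, and *Adamts5* was at 171 ± 1.58 and 124 ± 2.89 CPM and did not reach the fold-change threshold (log2 change −0.44). The membrane-bound *Mmp14* and *Mmp15* fell by 0.61 and 1.19, the former call being lost without replicate 2 at 0 h (−0.55), the urokinase gene *Plau* by 0.83 and *Adamts9* by 1.66.

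Cartilage matrix genes and chondrocyte regulators mostly fell. Of 19 tested members 13 fell and 1 rose, with a median of −0.68, and 9 of the 28 members in the table had too few counts to be tested. *Col11a1*, a fibrillar collagen of cartilage, was at 205, 199.6 and 190.4 CPM at 0 h and 57.1, 56.9 and 52.04 CPM at 24 h (log2 fold change −1.83, standard error 0.0468, edgeR adjusted p = 1.84e-15). *Hapln1*, the link protein that ties aggrecan to hyaluronan, fell from 22.2 ± 0.887 to 7.49 ± 0.921 CPM (SD, n = 3), *Col10a1* from 31.6 ± 1.94 to 8.71 ± 1.36 CPM and *Cilp2* from 5.34 ± 0.724 to 1.11 ± 0.0859 CPM. *Sox9*, the master transcription factor of chondrocytes, was at 32.6, 35.8 and 32.8 CPM and then 21.4, 19.97 and 21.4 CPM (log2 fold change −0.68, standard error 0.0596), and its partners *Sox5* and *Sox6* fell by 0.896 and 1.26. *Sox4* was at 69.2, 101 and 75.5 CPM and then 44.3, 46.7 and 52.2 CPM (log2 fold change −0.76), with replicate 2 highest at 0 h, and stood just under the threshold without that library (−0.58). *Col2a1*, type II collagen, fell by 0.602 from 11.7 ± 0.665 CPM, a call lost without replicate 1 at 0 h (−0.56) or replicate 2 at 24 h (−0.57), and the exception in the other direction was *Matn4*, at 5 to 14 reads at 0 h and 25 to 61 at 24 h.

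Fibroblast matrix genes were split, with 7 rises and 7 falls among 36 tested and a median of −0.12. *Dcn*, which encodes the small proteoglycan decorin, was at 14.3, 14.8 and 13.4 CPM at 0 h and 304, 311 and 330.4 CPM at 24 h (log2 fold change 4.49, standard error 0.0552, edgeR adjusted p = 7.24e-20). The related *Lum* (lumican) rose from 1.13 ± 0.0909 to 4.16 ± 0.137 CPM, and *Tnfaip6*, a hyaluronan-binding protein, from 2.38 ± 0.513 to 8.91 ± 0.725 CPM (SD, n = 3). Of other small leucine-rich proteoglycans *Ogn* (osteoglycin) fell, at 1252, 1068 and 1175 CPM and then 391, 408 and 338 CPM, as did *Aspn* (asporin) from 108 ± 11.7 to 13.5 ± 1.46 CPM and *Fmod* (fibromodulin) by 1.398 on the log2 scale, while *Bgn* (biglycan) was at 3511 ± 57.2 and 2756 ± 20.3 CPM and was not called. *Eln*, elastin, fell from 11.2, 11.05 and 10.2 CPM to 0.673, 0.792 and 1.003 CPM. Of the interstitial collagens *Col3a1* and *Col1a2* fell by 0.94 and 0.67, and *Col1a1* was at 343 ± 25.4 and 262 ± 8.98 CPM (log2 change −0.37, not called). The collagen cross-linking enzyme *Lox* rose by 0.797, from 686 ± 38.7 to 1181 ± 20.5 CPM.

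Contractile genes and targets of serum response factor fell in the main, 13 of 23 tested, and 2 rose (median −0.69). *Acta2*, smooth muscle actin, was at 1306, 1458 and 1509.9 CPM at 0 h and 398, 394 and 438 CPM at 24 h (log2 fold change −1.78, standard error 0.0542, edgeR adjusted p = 1.95e-14). *Lmod1*, leiomodin, fell from 18.2 ± 0.823 to 4.88 ± 0.432 CPM and *Tagln*, transgelin, from 11.3 ± 1.28 to 4.71 ± 0.138 CPM (SD, n = 3). *Srf* itself was at 158 ± 9.97 and 124 ± 9.46 CPM and was not called. The rises were *Ankrd1* (0.92) and *Tagln2* (0.68).

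In the BMP, TGFβ and WNT list 6 of 35 tested genes rose and 6 fell, with a median of −0.075. *Dkk2*, a secreted modulator of WNT receptors, fell from 6.85, 5.98 and 7.31 CPM to 1.15, 1.104 and 1.16 CPM, and the matricellular *Wisp1* from 101 ± 1.14 to 27.7 ± 0.329 CPM (SD, n = 3). *Wisp2* rose from 83.6 ± 2.35 to 241 ± 5.06 CPM, and *Grem1*, an antagonist of BMPs, from 23.8 ± 0.851 to 58.6 ± 1.47 CPM. *Gdf5*, a BMP-family ligand of joint development, rose by 1.57 on the log2 scale and *Gdf6* fell by 2.04 on few reads.

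Cilium-related genes moved little, apart from a few Hedgehog pathway genes. None of the 17 tested IFT-B genes was called by edgeR or by DESeq2, and their log2 changes lay between −0.37 (*Ift57*) and 0.24 (*Ift20*), with 9 of them at an unadjusted p under 0.05 (median −0.14). *Kif3a*, a subunit of the kinesin that drives transport into the cilium, was at 31.7 ± 0.569 and 30.4 ± 0.9699 CPM, *Nphp4*, a protein of the ciliary transition zone, at 7.51 ± 0.279 and 6.94 ± 0.2299 CPM, and *Ttbk2*, a kinase needed for cilium formation, at 26.98 ± 2.099 and 25.6 ± 2.54 CPM (SD, n = 3). Of 13 tested Hedgehog pathway genes 2 rose and 2 fell (median −0.14), while over all tested genes 6.7% rose and 7.98% fell. The list did not move as a group. *Ptch1*, the Hedgehog receptor and a target of the pathway, was at 55.4, 58.4 and 54.99 CPM at 0 h and 207, 204 and 205 CPM at 24 h (log2 fold change 1.88, standard error 0.0415, edgeR adjusted p = 2.62e-16). *Hhip*, which binds Hedgehog ligands, rose from 0.407 ± 0.0184 to 1.47 ± 0.141 CPM, the transcription factor *Gli2* and the kinesin *Kif7* fell by 0.73 and 0.63, and *Kif7* was under the fold-change threshold without replicate 3 at 0 h (−0.57) or replicate 1 at 24 h (−0.57). *Gli1*, a target commonly read as a measure of Hedgehog signalling, had 16 to 24 reads in each library (log2 change −0.28, not called).

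Interferon-stimulated genes stayed raised at 24 h at modest folds. Of 40 tested 23 rose and none fell, with a median log2 change of 0.64. *Zbp1*, a sensor of Z-form nucleic acids, was at 20.7, 18.3 and 18.1 CPM at 0 h and 130.2, 129.7 and 130.3 CPM at 24 h (log2 fold change 2.79, standard error 0.0515, edgeR adjusted p = 2.29e-17). The guanylate-binding proteins *Gbp5* and *Gbp6*, members of a family of close paralogs, rose to 12.4 ± 0.792 and 21.8 ± 1.88 CPM, and *Irf1* from 58.7 ± 0.761 to 95.9 ± 2.64 CPM (SD, n = 3). *Isg15*, a ubiquitin-like protein, was at 188 ± 3.17 and 255 ± 13.1 CPM and was not called. All 20 tested genes of MHC class I and the immunoproteasome had a log2 change above 0, of which 3 were called (*H2-T22*, *H2-T23* and *Psmb10*), with a median of 0.45. The calls of *H2-T23* and *Psmb10* were lost on log2(TPM + 1) values (0.56 and 0.57). *H2-K1* was at 2269 ± 65.1 and 3162 ± 173 CPM, and reads of such polymorphic, closely related genes can be misassigned.

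Adhesion molecules and receptors that face leukocytes included 8 rises and 1 fall among 14 tested (median 0.66). *Tnfrsf9*, the costimulatory receptor 4-1BB, was at 1.06, 0.9499 and 1.02 CPM at 0 h and 19.9, 20.6 and 22.3 CPM at 24 h (log2 fold change 4.38, standard error 0.1103). *Vcam1* and *Icam1*, which bind leukocyte integrins, rose from 11.6 ± 0.518 to 37.1 ± 2.02 CPM and from 3.05 ± 0.388 to 8.02 ± 0.376 CPM, and the pattern receptors *Cd14* and *Tlr2* by 1.87 and 1.56 on the log2 scale. *Tnfrsf11b*, which encodes osteoprotegerin, fell from 7.84 ± 0.766 to 3.74 ± 0.702 CPM (SD, n = 3).

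Of metabolic genes 3 lists were examined. Of 24 tested genes of glucose uptake and glycolysis 17 rose and none fell, with a median of 0.96, and the summed level of the list went from between 4225 and 4425 CPM to between 7636 and 8736 CPM. *Slc16a3*, the exporter of lactate, was at 3.41, 4.01 and 3.35 CPM at 0 h and 26.6, 26.6 and 30.99 CPM at 24 h (log2 fold change 2.98, standard error 0.0948, edgeR adjusted p = 3.64e-14). *Pfkfb3*, an activator of glycolysis, rose from 7.798 ± 0.598 to 35.9 ± 2.01 CPM, *Hk2*, an inducible hexokinase, from 12.6 ± 0.267 to 46.2 ± 2.87 CPM and *Ldha*, lactate dehydrogenase A, from 491 ± 9.87 to 1092 ± 74.2 CPM (SD, n = 3). Of the phosphofructokinase genes *Pfkl* rose by 1.48 and *Pfkm* and *Pfkp* were not called (log2 changes −0.21 and −0.43), nor was *Ldhb* (−0.44). In the list of oxidative stress and metal binding 8 of 25 tested genes rose and 1 fell, with a median of 0.15. *Sod2*, the mitochondrial superoxide dismutase, was at 34.9, 34.6 and 39 CPM and then 284, 295 and 305 CPM, the metallothionein *Mt2* rose by 3.05 on the log2 scale, and *Fth1*, the heavy chain of ferritin, rose from 1171 ± 63.8 to 5296 ± 458 CPM. Among other members of this list, the cystine carrier *Slc7a11* rose by 0.82 and *Nqo1* fell by 0.62, a call lost without replicate 1 at 0 h (−0.58). *Hmox1*, *Gclm*, *Gclc*, *Txnrd1* and *Srxn1* were not called, with log2 changes of 0.14, 0.35, 0.082, 0.082 and 0.15. None of the 24 tested genes of cholesterol synthesis and uptake was called by edgeR or by DESeq2, with log2 changes between −0.38 and 0.28, a median of −0.011 and 12 genes at an unadjusted p under 0.05.

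Proliferation genes stayed within the fold-change threshold. None of the 26 tested mitosis genes and none of the 28 replication genes was called by edgeR or by DESeq2, with medians of 0.102 and 0.011, and 14 and 9 of them were at an unadjusted p under 0.05. The log2 changes of both lists lay between −0.11 and 0.301. *Mki67*, a marker of cycling cells, was at 464, 489 and 459.6 CPM at 0 h and 480.1, 473 and 436 CPM at 24 h, and the groups overlapped.

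Immediate early genes were split at 24 h. Of 27 tested 7 were above their 0 h level, 4 below it and 16 not called, with a median of 0.068. *Ier3*, *Junb* and *Fosl2* were still raised, by 2.42, 1.47 and 1.29 on the log2 scale, and *Junb* was at 85.2, 87.2 and 85.6 CPM and then 227, 234 and 247 CPM. *Jun*, a subunit of AP-1, was at 79.7, 84.97 and 84.7 CPM and then 119, 122 and 131 CPM, a log2 change of 0.59 close to the threshold (edgeR adjusted p = 9.23e-09), and it was under that threshold without replicate 1 at 0 h (0.56) or replicate 3 at 24 h (0.55). The zinc-finger factor *Egr3* was at 12.6, 11.1 and 11.9 CPM and then 3.52, 2.93 and 2.94 CPM (log2 fold change −1.93, standard error 0.101), after a mean of 893 CPM at 1 h. *Nr4a1*, *Dusp4* and *Egr1* also fell below their 0 h level, by 0.95, 0.796 and 0.64. *Fos*, which had a mean of 235 CPM at 1 h, was at 13.1 ± 0.494 and 12.02 ± 0.241 CPM.

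The 12 largest falls had varied roles, and several were of genes at low levels. *Krt15*, a type I keratin of basal epithelia, was at 9.27, 9.25 and 6.57 CPM at 0 h and 0.277, 0.264 and 0.226 CPM at 24 h (log2 fold change −4.998, standard error 0.219, edgeR adjusted p = 3.27e-12), and the fall of the epithelial markers above goes beside it. *Itga8*, the α8 integrin subunit, was better covered, at 77.6, 75.9 and 79.9 CPM and then 6.37, 6.65 and 6.15 CPM (log2 fold change −3.59, standard error 0.05899). The libraries of each group lay close together for this gene and the group levels were far apart. *Tg*, which encodes thyroglobulin, fell by 3.36 on the log2 scale, *Itgbl1*, an integrin-like secreted protein, by 3.14, *Myom1*, a sarcomere protein, by 3.12 and *Gria1*, a glutamate receptor subunit, by 3.03. The others were *Fam180a* (−3.796), the sodium-proton exchanger *Slc9a3* (−3.21), the anoctamin *Ano5* (−2.99), and *Eln*, *Hpgd* and *Aspn* above.

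The time course set the 24 h level beside the earlier response, in libraries of the same cells. Of the 1030 genes that rose, 388 had their highest mean level at 4 h, 155 at 8 h and 378 at 24 h. Against 4 h, where 10.3% of 15049 tested genes were higher at 24 h and 15.3% lower, 276 of the rises were higher at 24 h and 345 lower, out of 1022 tested. This contrast shares the 24 h libraries with the main one. Acute-phase and complement genes were mostly at their highest late, with 12 of the 19 rises higher at 24 h than at 4 h and none lower, and so were 13 of the 17 glycolysis rises with 2 lower. Interferon-stimulated genes were past their peak, with 22 of the 23 rises lower at 24 h than at 4 h, as were 11 of the 13 in the NFκB list and 10 of the 16 chemokines.

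Single genes showed how far apart these courses were. *Saa3* went through means of 0.343, 3.13, 162 and 316 CPM at 1, 2, 4 and 8 h to 674 CPM at 24 h, and *C3* through 5.39, 8.38, 112 and 257 CPM to 1205 CPM. *Nos2* peaked at a mean of 232 CPM at 4 h and was lower at 24 h (log2 change from 4 h −2.06, edgeR adjusted p = 3.47e-14), and so were *Il6* (−2.51), *Ptgs2* (−2.62) and *Ccl2* (−1.57). Their levels nonetheless remained above 0 h in all 3 libraries at 24 h. *Cxcl1* was highest at 1 h, with a mean of 1085 CPM, and did not differ by call between 4 h and 24 h (log2 change −0.0086). *Mx1*, an interferon-induced GTPase, had a mean of 275 CPM at 4 h and 12.4 CPM at 24 h.

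Of the 1227 genes that fell, 701 had their lowest mean at 24 h and 322 at 4 h. Out of 1083 tested against 4 h, 485 were lower at 24 h than at 4 h and 137 higher. Selection on the 24 h level favours an extreme mean at 24 h, for rises and falls alike, and the share over all genes was not counted. A gene lower at 24 h than at 4 h need not have been below its 0 h level at 4 h. *Acta2* had a mean of 4377 CPM at 2 h and 2922 CPM at 8 h before it stood below its 0 h level at 24 h. *Cilp2* likewise had a mean of 30.9 CPM at 4 h. *Hpgd* ran the other way, at 0.403 CPM at 4 h and 0.9704 CPM at 24 h (log2 change from 4 h 1.33).

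**Figure D3:**
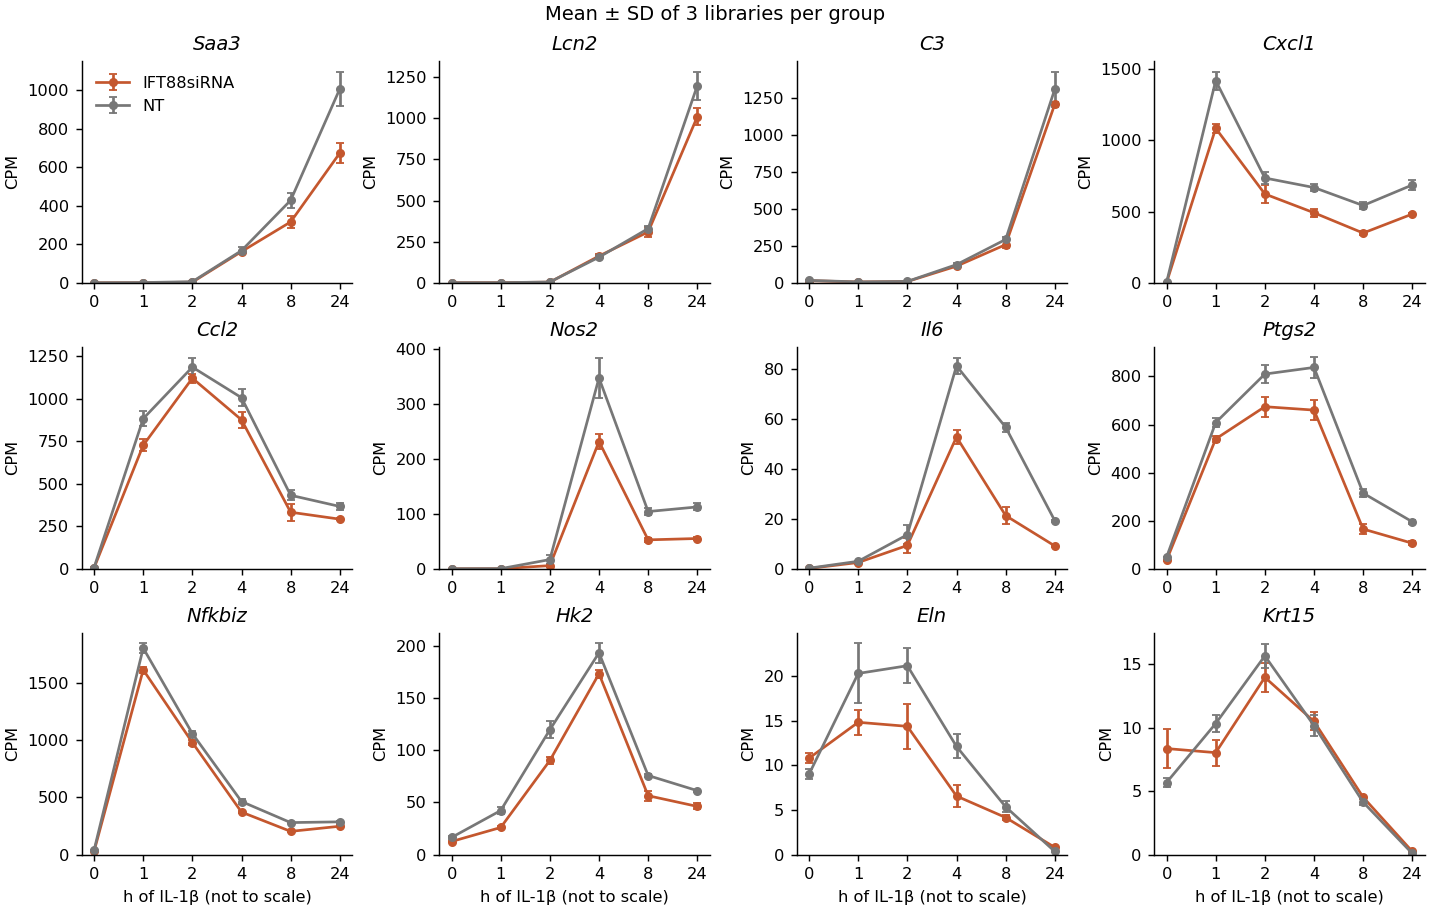
Mean CPM (y axis) of 12 genes at 0, 1, 2, 4, 8 and 24 h of IL-1β (x axis, steps not to scale) in IFT88siRNA (orange) and NT (grey) cells, with bars of 1 SD over 3 libraries. *Saa3*, *Lcn2* and *C3* were highest at 24 h, *Nos2* and *Il6* at 4 h, and *Eln* and *Krt15* lowest at 24 h in both kinds of cell.

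The response of *Ift88*-depleted cells was then set beside that of NT cells, whose 24 h and 0 h libraries are separate from it. In NT cells 1025 of 15304 tested genes rose (6.7%) and 1449 fell (9.47%). Between them 813 genes rose in both, which is 78.9% of the rises in IFT88siRNA and 79.3% of those in NT, and 961 fell in both, 78.3% and 66.3% of the falls. The 1 gene called in opposite directions, *Ccdc155*, which rose in IFT88siRNA and fell in NT, was named after its values were seen and was at 0.256 and 0.553 CPM at 0 h and 24 h. Its responses were not called different (edgeR adjusted p = 0.125). A gene called in only one kind of cell is not thereby shown to differ, so the difference of the responses was tested directly.

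By that test 30 of 15981 genes responded differently (0.188%), with a log2 change below that of NT for 19 and above it for 11, and 1466 genes had an unadjusted p under 0.05. The count was sensitive to single libraries, at 108 without replicate 3 of NT at 24 h and 19 without replicate 1 or 3 of NT at 0 h or replicate 2 of IFT88siRNA at 24 h. *Dcn* had the smallest adjusted p among the 10 named genes, with a difference of −1.18 on the log2 scale (standard error 0.09099, edgeR adjusted p = 8.18e-08). It was at 304, 311 and 330.4 CPM in IFT88siRNA at 24 h against 532, 507 and 474 CPM in NT, and at 14.2 ± 0.704 against 10.02 ± 0.602 CPM at 0 h (SD, n = 3). *Ptgfr*, the receptor of prostaglandin F2α, was at 5.15, 4.57 and 5.12 CPM at 0 h and 4.63, 6.12 and 6.05 CPM at 24 h in IFT88siRNA, where the groups overlapped, and at 1.44, 2.89 and 2.48 CPM and then 9.54, 10.3 and 8.197 CPM in NT (difference −1.84, standard error 0.221, edgeR adjusted p = 7.45e-05). *Mmp13* was at 11.6, 8.699 and 8.43 CPM in NT at 24 h, above all 3 IFT88siRNA libraries, from 0.564 ± 0.181 CPM at 0 h (difference −1.78, standard error 0.404, edgeR adjusted p = 0.0422). Its call was lost in 6 of the 12 fits that left out 1 library, each of the 3 NT libraries at 0 h, replicates 1 and 2 of IFT88siRNA at 0 h and replicate 2 at 24 h, whereas those of *Dcn* and *Ptgfr* were kept in all 12.

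Some of the called genes differed in level before IL-1β. Of the 19 genes with a difference below 0, 13 were higher in every IFT88siRNA library than in every NT library at 0 h, and 15 were lower in every library at 24 h. The genes were called on these same libraries, so that a gap at 0 h or at 24 h follows in part from their selection. The share of all tested genes with such gaps was not counted. *Steap4*, a metalloreductase, was at 2.02 ± 0.304 CPM at 0 h in IFT88siRNA and 0.822 ± 0.0941 CPM in NT, and at 84.4 ± 1.07 and 88.6 ± 5.68 CPM at 24 h, where the groups overlapped (SD, n = 3). *Adamts9*, a secreted metalloprotease, was at 16.6 ± 1.505 and 8.19 ± 0.658 CPM at 0 h and at 5.19 ± 0.179 and 5.14 ± 0.148 CPM at 24 h, so that its fall was the larger in IFT88siRNA. *Ptges* was lower at both times, at 8.204 ± 0.615 CPM in IFT88siRNA and 17.2 ± 1.6 CPM in NT at 24 h, against 2.46 ± 0.301 and 3.01 ± 0.163 CPM at 0 h (difference −0.78, edgeR adjusted p = 0.0301). Its call was lost in 8 of the 12 fits that left out 1 library, all those without 1 at 0 h but the one without replicate 2 of IFT88siRNA, and those without replicate 2 or 3 of IFT88siRNA or replicate 2 of NT at 24 h, with differences of −0.81 to −0.68. *Slc7a2* and *Ptch1* rose less, with differences of −0.75 and −0.596, and the call of *Ptch1* was lost without replicate 2 of IFT88siRNA at 0 h, replicate 1 or 3 of NT at 0 h or replicate 1 of NT at 24 h, at −0.58 to −0.55.

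Several other inflammatory genes were lower in every IFT88siRNA library than in every NT library at 24 h without a called difference in response. *Ptgs2* and *Lif* had differences of −0.43 and −0.36 with edgeR adjusted p = 0.00594 and 0.0116, under the fold-change threshold, and their levels were also lower in IFT88siRNA at 0 h. *Jun* differed the other way by 0.44 (edgeR adjusted p = 0.00135), with overlapping levels at 24 h. *Nos2* was at 55.1 ± 2.004 CPM in IFT88siRNA and 113 ± 6.48 CPM in NT at 24 h. Its difference of responses was −2.48, but few reads at 0 h left it with a standard error of 1.16 (edgeR adjusted p = 0.546). *Il6*, at 9.12 ± 0.439 and 19.2 ± 0.412 CPM, and *Mmp3*, at 1.62 ± 0.315 and 4.702 ± 0.566 CPM, were likewise not called different. Their differences were −0.13 and −1.86 (edgeR adjusted p = 0.975 and 0.222). For *Nos2*, *Mmp3* and *Il6* the lack of a call does not show an equal response. *Il6* had 4, 1 and 5 reads in the IFT88siRNA libraries at 0 h. For *Ccl2* the difference was 0.105 with a standard error of 0.113.

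**Figure D4:**
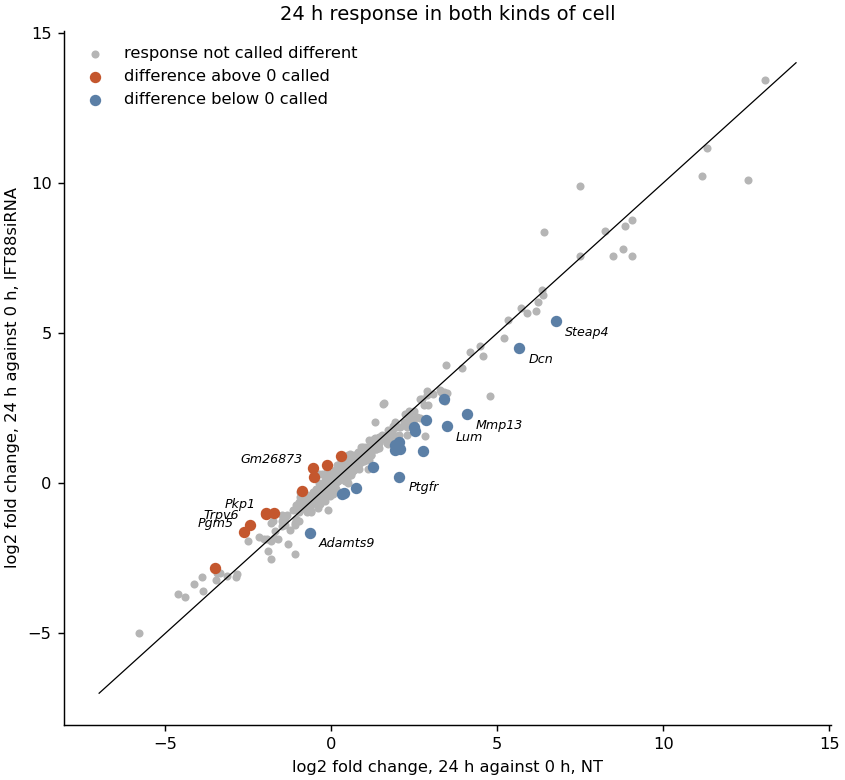
The log2 fold change from 0 h to 24 h in NT (x axis) and IFT88siRNA (y axis) of the list members, the named genes and all 30 genes with a called difference, drawn where tested in both, with the line of equal response. Called differences below 0 are in blue and above 0 in orange, and the 10 named genes are labelled.

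**Figure D5:**
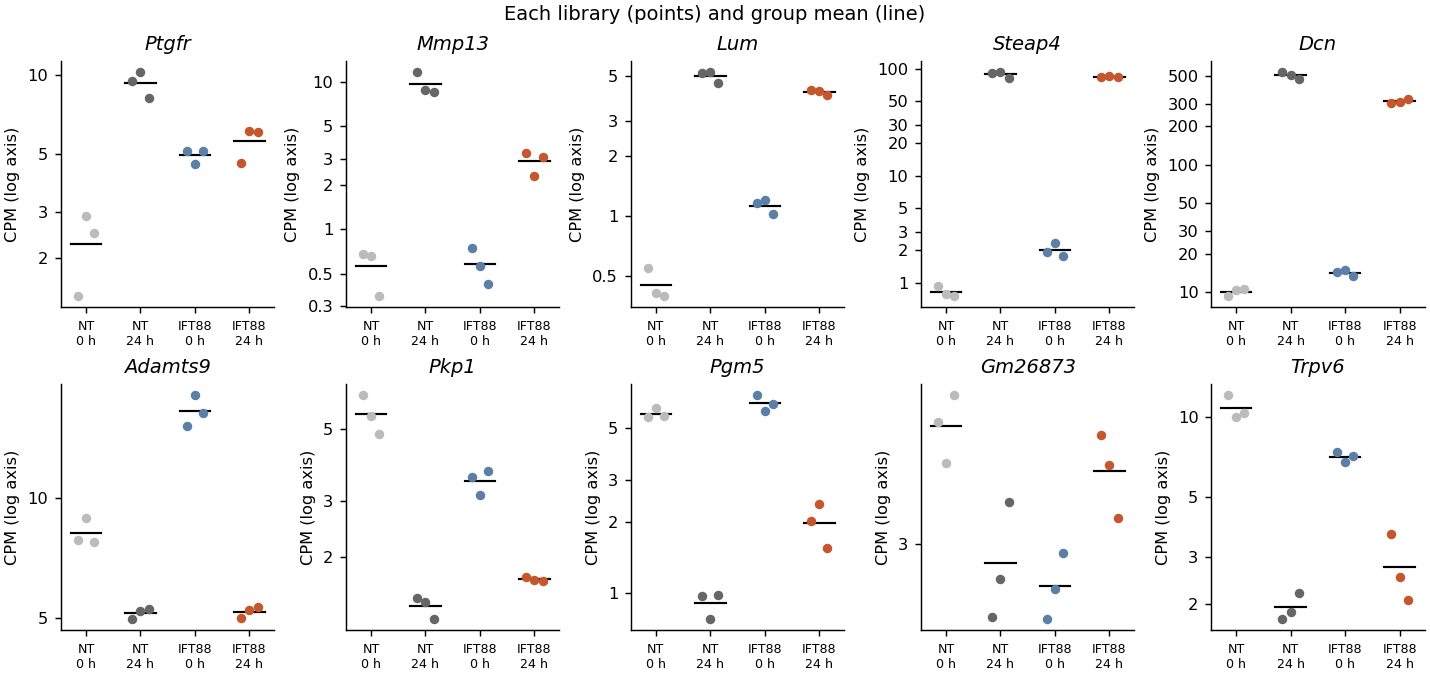
The CPM (log axis) of the 10 named genes with a called difference in response, in each library (points) and as group means (lines), for NT and IFT88siRNA at 0 h and 24 h. *Steap4* and *Adamts9* differ at 0 h and overlap at 24 h, whereas *Mmp13* overlaps at 0 h and differs at 24 h.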

How the data were processed

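RNA was measured by poly(A)-selected, paired-end RNA-seq. The authors aligned reads with HISAT2 (2.1.0) to GRCm38, counted them per Ensembl gene with featureCounts (Subread 1.6.3) and deposited the raw counts, with TPM values deposited beside them that the authors made with Salmon (0.9.1) with GC bias correction. Counts were taken as unstranded, so reads of overlapping and antisense genes cannot be told apart. Gene symbols were those of the deposited counts, and 53274 of 53421 gene IDs were matched in GENCODE. Here, genes passing filterByExpr were tested with edgeR's quasi-likelihood test (4.0.16, R 4.3.3, TMM scaling, two-sided) on the libraries of each contrast only, and the difference of responses as an interaction over 12 libraries. A call needed an adjusted p under 0.05 and a fold over 1.5. CPM used TMM over all 36 libraries, whose counts summed to 19337022 to 38304127. Alternatives were DESeq2 (1.42.0), limma (3.58.1) on log2(TPM + 1), other scalings and filters, a replicate block and leaving out each library.

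Named genes were the 12 largest rises and falls with a mean of at least 50 counts and no overlap, up to 3 in each direction per gene list, the 10 largest differences of response, genes the study names and further list members. The members and lists were chosen with earlier results of these data known. A few list members are not reported here by name.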

Additional observations from a re-analysis of the deposited data

Results flagged for a closer look

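The 24 h response differed between IFT88siRNA and NT by edgeR's interaction test for the following 10 genes, which have the largest differences of the 30 called and a mean of at least 50 counts. Values are the log2 response of IFT88siRNA minus that of NT. The difference was below 0 for *Ptgfr* (−1.84), *Mmp13* (−1.78), *Lum* (−1.57), *Steap4* (−1.36), *Dcn* (−1.18) and *Adamts9* (−1). It was above 0 for *Trpv6*, a calcium channel (1.07), the noncoding *Gm26873* (1.03), *Pgm5*, a phosphoglucomutase-related protein of cell adhesions (0.988), and *Pkp1*, the desmosomal plakophilin 1 (0.964). *Adamts9* was lower at 24 h than at 0 h in both kinds of cell, so that its difference is a larger fall in IFT88siRNA. For *Trpv6*, *Pgm5* and *Pkp1* this was a smaller fall, since all 3 were lower at 24 h than at 0 h in both kinds of cell. *Gm26873* went from a mean of 2.66 to 3.71 CPM in IFT88siRNA and from 4.22 to 2.84 CPM in NT.

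Leaving out 1 of the 12 libraries at a time kept the call in all 12 fits for *Ptgfr*, *Lum*, *Steap4*, *Dcn* and *Adamts9*. It was kept in 10 for *Trpv6* and *Gm26873*, in 6 for *Mmp13*, in 4 for *Pkp1* and in 3 for *Pgm5*. No explanation of these differences was tested.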

How the results depend on the processing

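Without a fold threshold 3652 genes rose and 3548 fell in IFT88siRNA, 3645 and 3512 in NT, 4424 were higher and 4571 lower at 24 h than at 4 h, and 91 responded differently. limma on log2(TPM + 1) gave 676 rises in IFT88siRNA, 662 in NT and 13 different responses, the same without a filter 677, 679 and 8, and log2(TPM + 0.1) gave 15 different responses. Without the low-count filter 46 responses differed. Leaving out 1 library gave 19 to 108 different responses, 990 to 1030 rises and 1186 to 1251 falls. *Ttbk2*, not called, changed sign without replicate 3 of IFT88siRNA at 24 h (0.01653 from −0.0623, and −0.125 without replicate 2). DESeq2 called 930 rises, 1121 falls and 26 different responses. Of 1603 alternative values for named genes 1576 kept their direction and side of the threshold, 26 lost the call and 1 changed sign, and of 210 for the differences in response 60 lost it. Leaving out 1 library, 208 of 225 called list members kept their call in every fit, as did 14 of the 30 genes with a different response. The median over all genes moved to −0.0709 on TPM.

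Samples were not treated as paired by replicate number. Deviations of same-numbered libraries correlated at 0.252, −0.219 and −0.00264, which with 3 libraries a group cannot decide whether they were paired. A replicate block gave 1027 rises, 1221 falls and 28 different responses. The cause of these shifts was not tested. With 3 libraries a group, depth limits most the genes with a few reads at 0 h.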
